A study of Rattus norvegicus with 25 samples.

Results

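Rat sperm small RNA (smRNA) libraries were examined for 3 microRNAs (miRNAs) that are often used as references in miRNA qPCR, miR-186, miR-191a and miR-425. Every entry of the miRNA count matrix whose name starts with rno-miR-186-, rno-miR-191a- or rno-miR-425- was taken, on either arm of the hairpin. This gave 5 of the 562 miRNAs in the matrix, and all 5 passed the filter on low counts that left 317 for testing. They were rno-miR-186-5p, rno-miR-191a-5p, rno-miR-191a-3p, rno-miR-425-5p and rno-miR-425-3p. rno-miR-186-3p had no entry in the matrix and was not analysed. The members were taken by name and by no measured value, although earlier results of these data were known.

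The sperm came from male Sprague-Dawley rats that had self-administered drug through a jugular catheter in daily sessions of 3 h over 60 days, and the design asked whether morphine and a drug-free interval alter sperm smRNA content. F0_SAL males (n = 7) took saline and F0_MOR males (n = 7) took morphine at 0.75 mg/kg per infusion, and both were collected at the end of self-administration. F0_ABS-SAL males (n = 5) and F0_ABS-MOR males (n = 6) had the same saline or morphine access and were collected after a further 90 days without drug. All males had catheter surgery and a lever that gave 1 infusion per press, and sperm was taken from the cauda epididymis by a double swim-up. Abstinent males were also older at collection, and age, time since behavioural sessions and any library batch cannot be told apart in a comparison of timepoints. Each library is called by its letter. The timepoint of a library rests on a code in its column name, which was tied to the groups by their sizes.

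A mature miRNA is a short single strand that is cut from one arm of an RNA hairpin and loaded into an Argonaute protein, which it guides to messenger RNAs. Pairing is led by the seed, the bases 2 to 8 from the 5′ end. One arm usually accumulates and the other, the passenger arm, is mostly lost. In qPCR a miRNA is read relative to a reference from the same RNA, so any change in the reference passes into every value divided by it. miR-186, miR-191 and miR-425 are present in many tissues and have been chosen as references for that reason. In this study miR-186-5p was the denominator of the qPCR for miR-150-5p. The mature sequences are shown because the 3 leading arms have to be distinct to be counted separately, and because the arms differ in level. They are from RefSeq on the GRCr8 assembly, in lower case with the seed in capitals.
rno-miR-186-5p: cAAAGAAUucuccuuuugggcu
rno-miR-191a-5p: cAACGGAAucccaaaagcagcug
rno-miR-191a-3p: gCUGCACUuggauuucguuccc
rno-miR-425-5p: aAUGACACgaucacucccguuga
rno-miR-425-3p: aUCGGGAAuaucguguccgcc

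The 3 leading arms had 3 different seeds, and no pair of them shared a run of more than 4 bases. Their lengths were 22, 23 and 23 bases, so that counts compare their levels with little effect of length, although ligation bias between sequences remains. Among all mature miRNAs in the matrix, rno-miR-191a-3p shared its seed with rno-miR-17-2-3p, which had 3929 counts in all. rno-miR-186-5p lies at chr2:249241664-249241685 on the plus strand, within the gene Zranb2. rno-miR-191a-5p is at chr8:118142641-118142663 and rno-miR-425-5p at chr8:118143094-118143116, both on the plus strand and within the gene Dalrd3. The hairpins of miR-191a and miR-425 are 366 bases apart, whereas miR-186 is on another chromosome. rno-miR-191b, which is read from the strand opposite miR-191a, had 4 counts in 2 libraries and is not one of the 5.

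The miRNA counts summed to between 1032386 and 3203211 per library. The median totals were 1701012 and 1428308 in the nonabstinent saline and morphine groups, and 2334377 and 2134169 in the abstinent ones. A count of 0 would allow up to 0.000291% of the shallowest library if it meant that no read was seen. The smallest count above 0 was 2, so a 0 may also stand for 1 read and would then allow more. No member was at 0 in any library. rno-miR-34c-5p, a miRNA of the male germ line, held 39.0% of all counts. Levels are given as CPM, the count per 1e+06 miRNA counts, after scaling by TMM (trimmed mean of M values), which sets the bulk of miRNAs level between libraries. The TMM factors ran from 0.701 to 0.966 for F0_SAL and from 1.02 to 1.21 for F0_ABS-SAL. Those of the morphine groups were 0.914 to 1.09 before and 0.951 to 1.26 after abstinence. The factors of F0_SAL and F0_ABS-SAL did not overlap.

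rno-miR-191a-5p was the most abundant of the 5 by a wide margin. It had 619411 counts over the 25 libraries, or 1.28% of all miRNA counts, and was the 13th most abundant miRNA. rno-miR-425-5p had 97524 counts (0.202%) and was the 45th. rno-miR-186-5p had 17811 counts (0.0369%) and was the 94th. This order held in every library, since the CPM ranges of the 3 over the 25 libraries did not overlap. In summed counts rno-miR-191a-5p exceeded rno-miR-425-5p by 6.35-fold and rno-miR-186-5p by 34.8-fold, and rno-miR-425-5p exceeded rno-miR-186-5p by 5.48-fold. These are ratios of reads, which ligation bias between the sequences can also move.

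rno-miR-186-5p is the reference used by the study and the scarcest of the leading arms, with 306 to 1337 counts per library. In F0_SAL its lowest, median and highest levels were 260, 344 and 432 CPM. In F0_MOR they were 318, 352 and 433 CPM. All groups shared most of one range. In F0_ABS-SAL the libraries E, K, L, R and Y had 420, 396, 404, 331 and 427 CPM, and 4 of the 5 lay in the upper part of the F0_SAL range. In F0_ABS-MOR the lowest, median and highest levels were 313, 355 and 459 CPM. The mean was 339 ± 54.2 CPM (SD, n = 7) in F0_SAL and 359 ± 37.4 (n = 7) in F0_MOR. It was 396 ± 38.2 (n = 5) in F0_ABS-SAL and 369 ± 52.9 (n = 6) in F0_ABS-MOR. The highest of the 25 libraries exceeded the lowest by 1.76-fold.

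rno-miR-191a-5p, a broadly expressed miRNA and a common reference in tissue and serum qPCR, had 13793 to 39112 counts per library. In F0_SAL its lowest, median and highest levels were 11232, 15550 and 18579 CPM, and in F0_MOR they were 10992, 13921 and 19114 CPM. No nonabstinent library was below 10992 CPM. In F0_ABS-SAL the libraries E, K, L, R and Y had 15522, 11688, 9550, 7756 and 12301 CPM. In F0_ABS-MOR the lowest, median and highest levels were 8286, 11267 and 16515 CPM. The abstinent groups held the lowest libraries and still overlapped with the nonabstinent ones. The mean was 14842 ± 2643 CPM (SD, n = 7) for F0_SAL and 14327 ± 3125 (n = 7) for F0_MOR. After abstinence it was 11364 ± 2940 (n = 5) for saline and 11706 ± 3595 (n = 6) for morphine.

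rno-miR-425-5p, from the hairpin beside miR-191a, had 1867 to 6302 counts per library. In F0_SAL its lowest, median and highest levels were 1589, 2298 and 2869 CPM, and in F0_MOR they were 1456, 2274 and 2428 CPM. In F0_ABS-SAL the libraries E, K, L, R and Y had 1862, 2335, 1542, 1506 and 1970 CPM. The lowest library of all was in F0_MOR, and no group stood clear of another. In F0_ABS-MOR the lowest, median and highest levels were 1645, 1749 and 2653 CPM. The nonabstinent means were 2254 ± 434 CPM for saline and 2073 ± 382 for morphine (SD, n = 7 each). The abstinent means were 1843 ± 340 (n = 5) for saline and 1899 ± 385 (n = 6) for morphine.

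**Figure D1:**
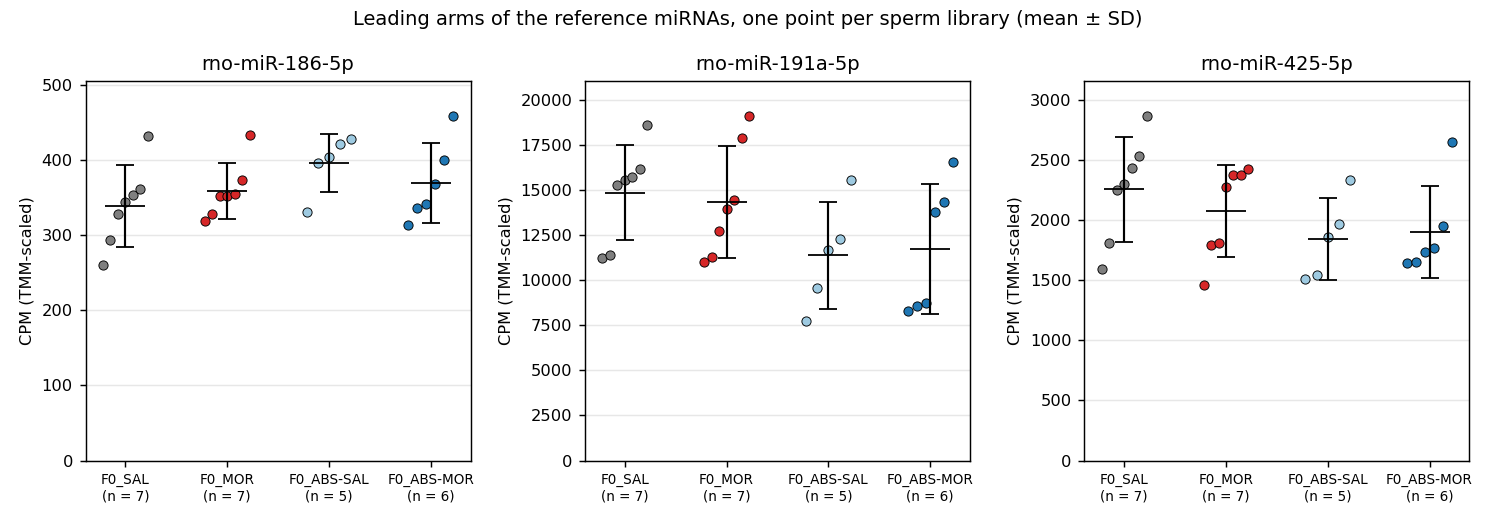
TMM-scaled CPM (vertical axis, linear) of rno-miR-186-5p, rno-miR-191a-5p and rno-miR-425-5p, with one point per sperm library, grouped by sire treatment and timepoint. Horizontal lines and bars are the mean ± SD. The points of all 4 groups overlap for each miRNA, and rno-miR-186-5p stays between 260 and 459 CPM.

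The passenger arms were detected in all libraries at much lower levels. rno-miR-191a-3p had 2319 counts in all and ranged from 21.1 to 122 CPM, with the highest level in an F0_SAL library. It made up 0.373% of the reads of its hairpin when all libraries were pooled, and between 0.185% and 0.791% in single libraries. The 5p arm thus exceeded the 3p arm by 267-fold. rno-miR-425-3p had 1425 counts, ranged from 12.5 to 43.8 CPM and made up 1.44% of its hairpin's reads (0.825% to 1.81%), a 68.4-fold excess of the 5p arm. The passenger share was higher for miR-425 than for miR-191a in every library, since the lowest share of the former exceeded the highest of the latter. The mean of rno-miR-191a-3p was 65.7 ± 33.9 CPM in F0_SAL and 63.8 ± 25.1 in F0_MOR (SD, n = 7 each), against 35.4 ± 11.3 in F0_ABS-SAL (n = 5) and 40.9 ± 18.6 in F0_ABS-MOR (n = 6). For rno-miR-425-3p the means in the same order were 31.9 ± 10.8, 28.3 ± 7.23, 26.6 ± 8.69 and 28.1 ± 7.77 CPM. The means of rno-miR-425-3p lay closer together than the SD within any group.

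Morphine and saline were compared first, by edgeR's quasi-likelihood test over all 317 miRNAs with Benjamini-Hochberg adjustment. To be called, a miRNA needed an adjusted p below 0.1 and a log2 fold change of more than 0.58 in either direction. Between F0_MOR and F0_SAL 0 of the 5 members were called, where 0% of all miRNAs tested were called. Over all miRNAs, 23 (7.26%) had an unadjusted p under 0.05 in edgeR. In DESeq2, which was run on all 562 miRNAs without the filter on low counts, 30 did. In either test 0 of the 5 members were among them. The log2 fold change of rno-miR-186-5p was 0.08 (standard error 0.14, 95% interval -0.21 to 0.38, adjusted p = 0.873). For rno-miR-191a-5p it was -0.05 (95% interval -0.43 to 0.33, adjusted p = 0.938), and for rno-miR-425-5p it was -0.12 (95% interval -0.46 to 0.21, adjusted p = 0.836). All 3 intervals stayed within the log2 threshold of 0.58 on either side. The passenger arms were measured less well. rno-miR-191a-3p was at -0.03 (adjusted p = 0.968) and rno-miR-425-3p at -0.19 (adjusted p = 0.846), and the interval of each passed the threshold on at least one side.

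After abstinence, between F0_ABS-MOR and F0_ABS-SAL, edgeR again called 0 of the 5 members and 0% of all miRNAs. An unadjusted p under 0.05 was found for 4 miRNAs (1.26%) in edgeR and 5 of 562 in DESeq2, and for 0 of the 5 members in either. The log2 fold changes of the leading arms were -0.10 for rno-miR-186-5p (95% interval -0.43 to 0.23), 0.04 for rno-miR-191a-5p (-0.38 to 0.47) and 0.04 for rno-miR-425-5p (-0.34 to 0.42), each with an adjusted p of 1.00. These intervals also lay within the threshold. The passenger arms were at 0.21 for rno-miR-191a-3p and 0.08 for rno-miR-425-3p. No member had groups that did not overlap in either comparison of treatments, nor did any other miRNA tested (0%). Whether the treatment difference itself differed between timepoints was tested as an interaction in the same edgeR fit. It was called for 0 of the 5 (0% of all), and each of the 5 had an adjusted p of 0.953 in edgeR. Over all miRNAs, 10 (3.15%) had an unadjusted p under 0.05 in edgeR and 11 of 562 in DESeq2.

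The timepoints differed more over the whole matrix. Between F0_ABS-SAL and F0_SAL 33.1% of the 317 miRNAs were called, 22.4% higher and 10.7% lower, and between F0_ABS-MOR and F0_MOR 21.1%, 11% higher and 10.1% lower. The number called between the saline groups was 105, or 65 without library R. The median absolute log2 fold change over all miRNAs was 0.51 and 0.41 in these comparisons, against 0.23 and 0.13 in those of treatment. Of the 5 members 1 was called between the saline groups, rno-miR-191a-3p, which was also the 1 member with an unadjusted p under 0.05 in edgeR (42.9% of all miRNAs). In DESeq2 2 of the 5, rno-miR-191a-3p and rno-miR-191a-5p (adjusted p = 0.111), were among the 149 of 562 miRNAs at an unadjusted p under 0.05. Between the morphine groups edgeR called 0 of the 5, and 0 had an unadjusted p under 0.05 (32.5% of all, 103 miRNAs). DESeq2 also called 0 of the 5 there and 72 of 562 miRNAs. In that test 1 of the 5, rno-miR-191a-3p, was among the 122 of 562 at an unadjusted p under 0.05. rno-miR-191a-3p was lower in F0_ABS-SAL than in F0_SAL, and its log2 fold change was -0.88 (standard error 0.35, 95% interval -1.60 to -0.17, adjusted p = 0.0569 in edgeR). Its levels in F0_SAL libraries C, F, H, O, P, V and W were 94.8, 60.8, 122, 38.2, 68.7, 21.1 and 54.4 CPM. In F0_ABS-SAL libraries E, K, L, R and Y they were 55.5, 29.3, 31.2, 30.1 and 31.0 CPM. Library V of F0_SAL lay below all 5 abstinent libraries, and the groups overlapped. The call rested on 37 to 143 counts per library in F0_SAL and 60 to 105 in F0_ABS-SAL. It was lost without any one of libraries C, K or R, or when counts were scaled by their total (log2 fold change -0.56, adjusted p = 0.307). DESeq2 gave -0.89 (adjusted p = 0.0370).

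Between the saline groups 0 of the 3 leading arms were called, and their absolute log2 fold changes were below the median of 0.51 over all miRNAs. rno-miR-186-5p was at 0.22 on the log2 fold change scale between F0_ABS-SAL and F0_SAL (standard error 0.16, 95% interval -0.10 to 0.54, adjusted p = 0.271 in edgeR). rno-miR-191a-5p was at -0.39 (standard error 0.20, 95% interval -0.80 to 0.03, adjusted p = 0.144) and rno-miR-425-5p at -0.29 (standard error 0.18, 95% interval -0.66 to 0.08, adjusted p = 0.208). Without library E rno-miR-191a-5p was called, at -0.59 (adjusted p = 0.0391). The estimate for rno-miR-186-5p was thus positive and those for the neighbouring hairpins negative, none passing the test with all libraries. The interval of rno-miR-186-5p stayed inside the threshold and those of the other two leading arms reached past it on the lower side. With total-count scaling rno-miR-186-5p was called higher, at 0.61 (adjusted p = 0.00326), the estimate for rno-miR-425-5p turned to 0.10 and that for rno-miR-191a-5p came to -0.0045. That scaling moved the median of all miRNAs by 0.39, and relative to it rno-miR-186-5p again lay above and the other two leading arms below. It gave 110 calls higher and 1 lower, against 71 and 34 with TMM. rno-miR-425-3p was at -0.27 (adjusted p = 0.467).

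Between F0_ABS-MOR and F0_MOR each leading arm had a smaller estimate than between the saline groups, a contrast equal to the interaction above (adjusted p = 0.953 in edgeR). rno-miR-186-5p was at 0.04 (standard error 0.15, 95% interval -0.26 to 0.35, adjusted p = 0.869 in edgeR). rno-miR-191a-5p was at -0.29 (95% interval -0.68 to 0.10, adjusted p = 0.296), rno-miR-425-5p at -0.13 (95% interval -0.48 to 0.22, adjusted p = 0.650), rno-miR-191a-3p at -0.65 (adjusted p = 0.167) and rno-miR-425-3p at -0.01 (adjusted p = 0.993). Scaling by total count gave 57 calls higher and 14 lower over the matrix, against 35 and 32 with TMM. None of the 5 had groups that did not overlap in either timepoint comparison, where 6.94% of all miRNAs did between the saline groups and 3.47% between the morphine groups. All p-values set a group difference against the spread between these libraries.

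**Figure D2:**
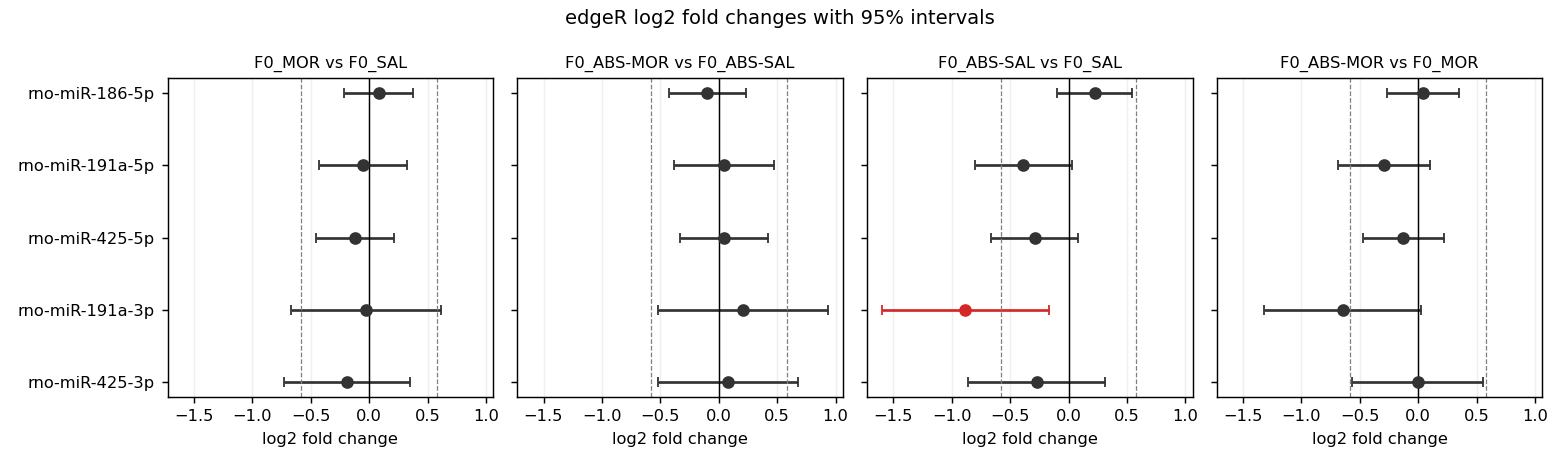
edgeR log2 fold changes (horizontal axis) of the 5 members in the 4 comparisons, as points with 95% intervals. The dashed lines mark the log2 threshold of 0.58 on either side and the coloured point is the one called, rno-miR-191a-3p at -0.88 between F0_ABS-SAL and F0_SAL.

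The spread between libraries was then ranked over the 317 miRNAs, as the SD of log2 CPM over all 25 libraries, with rank 1 for the smallest. This is a description, and counts of abundant miRNAs carry less counting noise. rno-miR-186-5p had an SD of 0.19 and ranked 3, beside rno-miR-30d-5p, which had the lowest at 0.19. rno-miR-425-5p had 0.28 (rank 15) and rno-miR-191a-5p 0.38 (rank 54), against a median of 0.56 over all miRNAs. The most abundant of the 3 was therefore the most variable and the scarcest was the least. Counting noise alone would give about 0.0583 for rno-miR-186-5p, 0.0246 for rno-miR-425-5p and 0.0096 for rno-miR-191a-5p, and noise of ligation and library preparation is not part of these values. The passenger arms had SDs of 0.70 for rno-miR-191a-3p (rank 224) and 0.48 for rno-miR-425-3p (rank 112), with counting noise of 0.161 and 0.219.

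With the group means removed, the pooled SD within groups was 0.19 for rno-miR-186-5p (rank 5), 0.28 for rno-miR-425-5p (rank 26) and 0.35 for rno-miR-191a-5p (rank 66), and rno-miR-21-5p had the lowest at 0.16. The median over all miRNAs was 0.49. The range of the 4 group means was 0.23 for rno-miR-186-5p, 0.28 for rno-miR-425-5p and 0.40 for rno-miR-191a-5p, against a median of 0.65. All 3 leading arms were thus below the median miRNA on each measure. The order of rno-miR-186-5p and rno-miR-425-5p depended on the scaling. With total count alone the SD was 0.29 (rank 26) for rno-miR-186-5p, 0.23 (rank 8) for rno-miR-425-5p and 0.36 (rank 48) for rno-miR-191a-5p. With one TMM factor taken from the miRNA and the Ensembl ncRNA counts joined, the SDs were 0.34 (rank 15), 0.42 (rank 54) and 0.46 (rank 79).

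**Figure D3:**
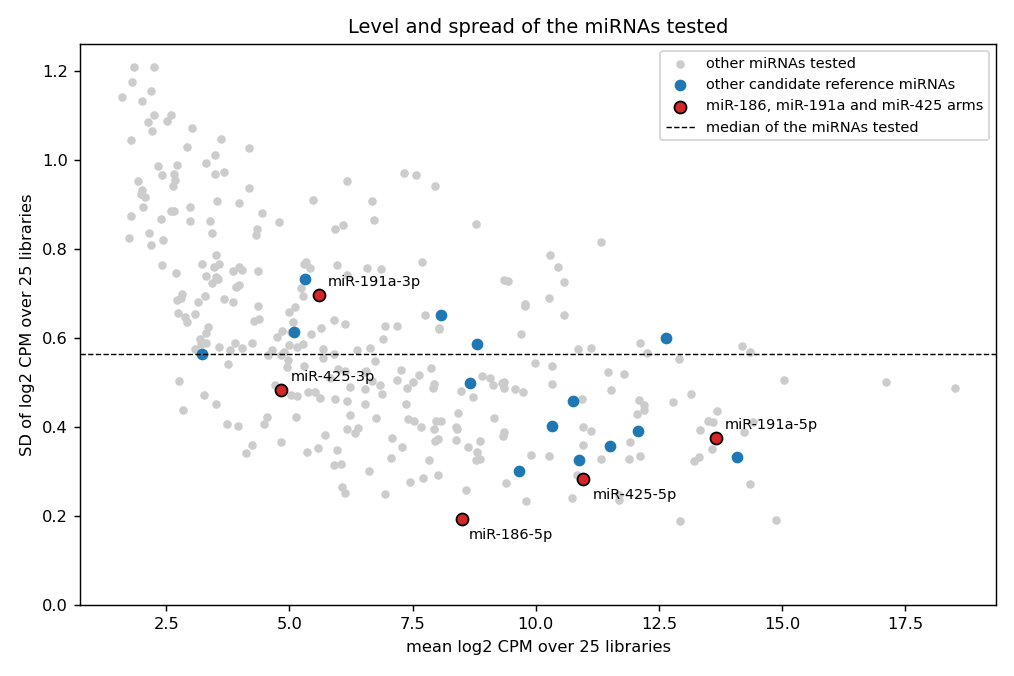
Mean log2 CPM over 25 libraries (horizontal axis) against the SD of log2 CPM over the same libraries (vertical axis), with one point per miRNA tested. Red points are the 5 members, blue points the other 14 candidate references and grey points the remaining miRNAs, with a dashed line at the median SD of 0.56. rno-miR-186-5p lies at the lower edge at an SD of 0.19.

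A measure that needs no library size was also used. The geNorm M value of a candidate is the mean SD of its log2 ratio to each of the other candidates, and a low value means that its ratios vary little. Among 17 candidates, the 3 leading arms and 14 other miRNAs that are commonly used as references, rno-miR-186-5p had the lowest M (0.507). It was followed by rno-miR-425-5p (0.539), rno-miR-22-3p (0.540), rno-miR-26a-5p (0.546), rno-miR-103-3p (0.566) and rno-miR-191a-5p (0.573). The values after the first were close to each other. rno-miR-151-5p (0.788) and rno-miR-320-3p (0.844) had the highest. With group means removed rno-miR-186-5p kept rank 1, rno-miR-425-5p ranked 4 and rno-miR-191a-5p ranked 7. M depends on which candidates are listed.

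All 14 of the other candidates were tested, and 0 were called in either comparison of treatments. Between F0_ABS-SAL and F0_SAL 3 were higher and 1 lower, with a median log2 fold change of 0.05 for the list and 0.00 for all miRNAs. The 3 higher were rno-miR-320-3p (1.04), rno-miR-23a-3p (1.04) and rno-miR-24-3p (0.82), and the lower was rno-let-7a-5p (-0.85), of the let-7 family. Between F0_ABS-MOR and F0_MOR 0 were higher and 4 lower, rno-miR-151-5p (-0.88), rno-miR-423-5p (-0.84), rno-let-7a-5p (-0.80) and rno-miR-93-5p (-0.67), with a median of -0.04 for the list. Over all miRNAs 33.1% were called between the saline and 21.1% between the morphine groups, so nothing is read from the 4 of 14 called in each, and the list was not tested against the 3 leading arms.

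Since miR-191a and miR-425 share a host gene, the log2 ratio of each pair of leading arms was followed within libraries. The SD of the ratio over 25 libraries was 0.28 for rno-miR-186-5p over rno-miR-425-5p, 0.29 for rno-miR-425-5p over rno-miR-191a-5p and 0.40 for rno-miR-186-5p over rno-miR-191a-5p. The neighbouring hairpins therefore did not form the tightest pair. Among 316 other miRNAs, rno-miR-186-5p was the 8th and rno-miR-191a-5p the 12th closest to rno-miR-425-5p by this measure. In turn rno-miR-425-5p was the 3rd closest to rno-miR-186-5p and the 12th closest to rno-miR-191a-5p. The 3 miRNAs that kept the steadiest ratio to rno-miR-186-5p were rno-miR-21-5p (SD 0.23), rno-miR-29a-3p (0.25) and rno-miR-425-5p (0.28), where the median miRNA had 0.60. For rno-miR-425-5p they were rno-miR-363-3p (0.20), rno-miR-3580-5p (0.22) and rno-miR-29a-3p (0.24), with a median of 0.65. For rno-miR-191a-5p they were rno-miR-146b-5p (0.23), rno-miR-743a-5p (0.23) and rno-miR-741-3p (0.24), with a median of 0.71, and miR-741 and miR-743a belong to a cluster of testis miRNAs. The ratios share their libraries and, for each member, their denominator.

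The group differences of these ratios were tested by two-sided exact permutation tests, with Benjamini-Hochberg adjustment over the 28 ratio tests run. These 28 include the tests of rno-miR-150-5p and rno-miR-547-3p below, which the study picked on these libraries. Low p-values among those reduce the adjusted p of the other ratios, and an adjustment without them was not made. The adjusted p of a ratio between the leading arms is therefore not read as passing. In F0_SAL the log2 ratio of rno-miR-186-5p to rno-miR-425-5p had a lowest, median and highest value of -3.06, -2.64 and -2.41. In F0_ABS-SAL libraries E, K, L, R and Y it was -2.15, -2.56, -1.93, -2.18 and -2.20. All but library K lay above the whole F0_SAL group. The mean rose from -2.72 ± 0.22 (SD, n = 7) to -2.20 ± 0.23 (n = 5), a difference of 0.52 or 1.43-fold (exact permutation p = 0.00253, adjusted 0.00786). The ratio of rno-miR-186-5p to rno-miR-191a-5p rose by 0.64 between the same groups, or 1.56-fold, from -5.45 ± 0.38 to -4.81 ± 0.27 (exact permutation p = 0.0152, adjusted 0.0386), and 5 of 5 F0_ABS-SAL libraries lay above the F0_SAL mean. In this ratio the groups overlapped through one F0_SAL library at -4.72. With group medians in place of means its exact permutation p was 0.111 for a difference of 0.63.

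Between the morphine groups the difference was 0.16 for rno-miR-186-5p over rno-miR-425-5p (exact permutation p = 0.189) and 0.36 for rno-miR-186-5p over rno-miR-191a-5p (exact permutation p = 0.0769, adjusted 0.144). Neither had an exact permutation p under 0.05, and whether the saline and morphine differences differ from each other was not tested. Between treatments rno-miR-186-5p over rno-miR-425-5p differed by 0.21 in nonabstinent males (exact permutation p = 0.104) and by -0.15 in abstinent males (exact permutation p = 0.242). rno-miR-186-5p over rno-miR-191a-5p differed by 0.15 (exact permutation p = 0.379) and -0.13 (exact permutation p = 0.550). The ratio of the neighbouring hairpins, rno-miR-425-5p over rno-miR-191a-5p, differed by -0.06, 0.02, 0.12 and 0.20 in the 4 comparisons, with exact permutation p between 0.276 and 0.948. The group ranges overlapped in all 12 of these comparisons. Leaving out library V of F0_SAL brought the exact permutation p to 0.0495 for both ratios of rno-miR-186-5p between F0_MOR and F0_SAL.

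**Figure D4:**
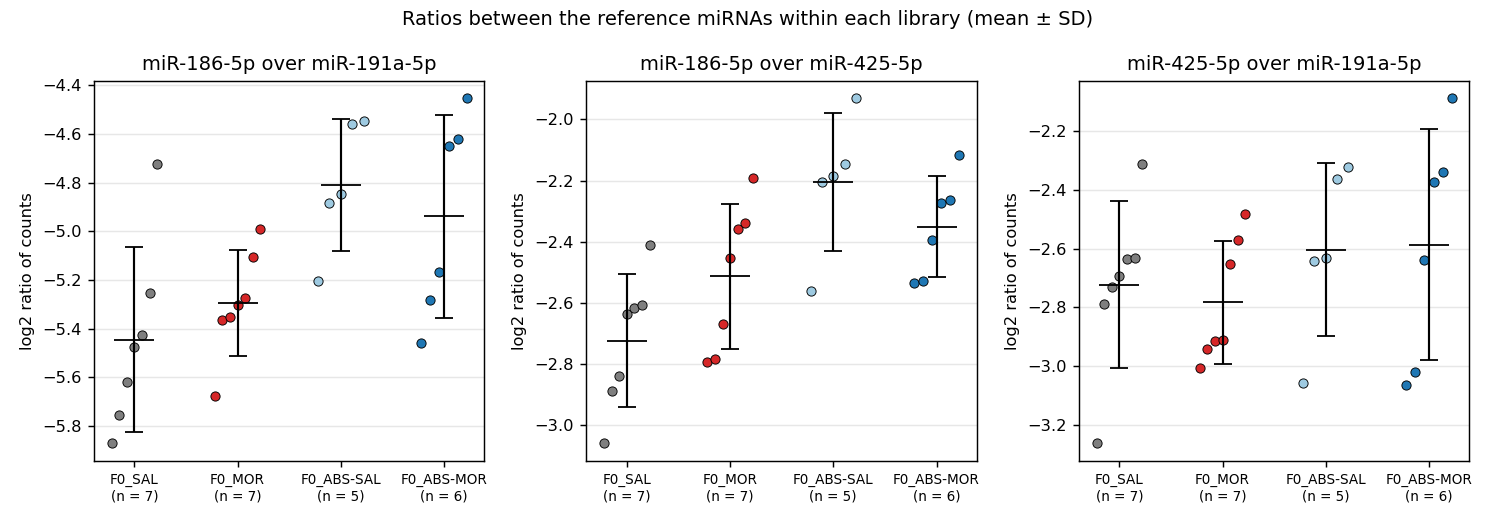
Log2 ratio of counts within each library (vertical axis) for the 3 pairs of leading arms, one point per library, with mean ± SD. The ratios of rno-miR-186-5p to the other two lie higher in F0_ABS-SAL than in F0_SAL, by 0.64 for rno-miR-191a-5p and 0.52 for rno-miR-425-5p, while rno-miR-425-5p over rno-miR-191a-5p differs by 0.12.

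The choice of reference was carried through to 2 miRNAs that the study picked on these libraries, so their differences are not independent evidence and are given to show how far the reference moves them. For rno-miR-150-5p, a miRNA of mature lymphocytes, the log2 ratio to rno-miR-186-5p in F0_SAL libraries C, F, H, O, P, V and W was -2.01, -1.75, 0.04, -2.58, -0.97, -1.98 and -2.21. In F0_MOR libraries A, B, G, M, N, T and U it was -0.61, -0.80, -0.59, 0.12, -0.58, -0.99 and -1.27. The F0_SAL mean was exceeded in 7 of 7 F0_MOR libraries, and the groups overlapped through F0_SAL libraries H and P. The difference between F0_MOR and F0_SAL was 0.96 over rno-miR-186-5p, or 1.95-fold (exact permutation p = 0.0245, adjusted 0.0490), and the exact permutation p was 0.0501 without library O or without library M. Over rno-miR-191a-5p it was 1.11, or 2.16-fold (exact permutation p = 0.0111, adjusted 0.0310). Over rno-miR-425-5p it was 1.17, or 2.26-fold (exact permutation p = 0.0204, adjusted 0.0439). The geometric mean of the 3 gave 1.08, or 2.12-fold (exact permutation p = 0.0181, adjusted 0.0422). The order of the references depended on the statistic. With group medians the difference was 1.38 over rno-miR-186-5p, 0.92 over rno-miR-191a-5p, 1.12 over rno-miR-425-5p and 0.98 over the geometric mean. In abstinent males the differences were 0.37, 0.24, 0.22 and 0.28 with the same references in the same order (exact permutation p between 0.229 and 0.597). With TMM scaling and edgeR it was 0.92 in nonabstinent males, with an adjusted p of 0.311 over all miRNAs.

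rno-miR-547-3p, a miRNA encoded on the X chromosome, was set against the references between timepoints. The gap between the values over any pair of references is the group difference of their own ratio, given above, and would be the same for any other miRNA. Between F0_ABS-SAL and F0_SAL its ratio rose by 1.25 over rno-miR-186-5p (2.38-fold), 1.77 over rno-miR-425-5p (3.41-fold) and 1.89 over rno-miR-191a-5p (3.71-fold), and by 1.64 over the geometric mean (3.11-fold). Each had an exact permutation p of 0.00126, the smallest that 5 against 7 libraries allow, and the groups did not overlap. Between F0_ABS-MOR and F0_MOR the differences were 1.54 (2.91-fold), 1.70 (3.26-fold), 1.90 (3.73-fold) and 1.72 (3.28-fold) with the same references in the same order, each at the smallest exact permutation p of 5.83e-04, without overlap. With group medians the differences between the morphine groups were 1.63 over rno-miR-186-5p, 1.59 over rno-miR-425-5p and 1.77 over rno-miR-191a-5p, in another order. The TMM values from edgeR were 1.53 and 1.56, between those over rno-miR-186-5p and rno-miR-425-5p.

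**Figure D5:**
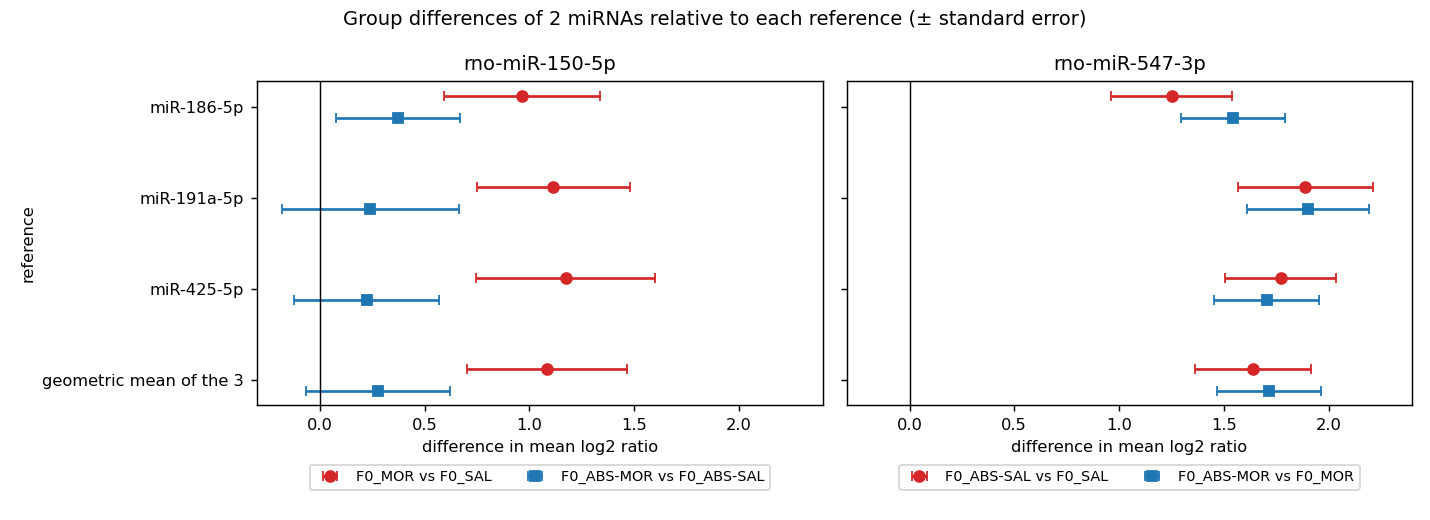
Difference between group means of the log2 ratio (horizontal axis) of rno-miR-150-5p and rno-miR-547-3p to each leading arm and to the geometric mean of the 3, as points ± standard error. For rno-miR-547-3p between F0_ABS-SAL and F0_SAL the values run from 1.25 over rno-miR-186-5p to 1.89 over rno-miR-191a-5p.

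The 3 references are expressed by most cell types, so the content of the libraries was checked with miRNAs of other cells. In bulk samples fewer cells of a type and less RNA per cell cannot be told apart. Sperm miRNAs (miR-34c-5p, miR-34b-5p and miR-449a-5p, all detected) summed to medians of 499711 CPM for saline and 422047 CPM for morphine before abstinence, and of 307835 and 359840 CPM after it, with ranges of 374291 to 710092 CPM in F0_SAL and 255078 to 372704 CPM in F0_ABS-SAL, which did not overlap. Of the 3, 2 were called lower between these groups, where 10.7% of all miRNAs tested were called lower. The ranges of 6.94% of single miRNAs tested did not overlap there. Over the same groups 4 of 6 epithelial, 3 of 4 muscle, 2 of 2 endothelial and 1 of 6 leukocyte miRNAs tested were called higher. Of all miRNAs tested 22.4% were called higher, and the 2 endothelial miRNAs are the 2 arms of miR-126a. Endothelial miRNAs summed to 546 to 783 CPM in F0_SAL and 708 to 2821 CPM in F0_ABS-SAL, epithelial to 6416 to 10606 and 8536 to 18840 CPM, leukocyte to 1153 to 2249 and 1939 to 2698 CPM. Muscle miRNAs summed to 13600 to 16717 CPM in F0_SAL and 17546 to 81478 CPM in F0_ABS-SAL, with medians of 15214 and 19196 CPM. Of the 4 tested, the mean log2 CPM over 25 libraries was 14.18 for rno-miR-143-3p and 6.68 for rno-miR-145-5p. It was 3.03 for rno-miR-1-3p and 2.59 for rno-miR-133a-3p, so the sum mostly reflects rno-miR-143-3p. Erythroid miRNAs (3 of 4 names found) had medians of 1033 and 984 CPM, and 0 of 3 were called there, while 3 of 3 were lower between F0_ABS-MOR and F0_MOR. Between F0_ABS-MOR and F0_MOR 2 of 6 epithelial, 2 of 2 endothelial, 1 of 4 muscle and 1 of 6 leukocyte miRNAs were higher. A further 1 of 6 leukocyte miRNAs was lower. Of all miRNAs tested 11% were called higher and 10.1% lower there. Between treatments 0 marker miRNAs and 0% of all miRNAs were called. The part of these cells in the ratios of rno-miR-186-5p between timepoints was not tested.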

How the data were processed

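Sperm RNA of 25 rats was made into libraries with the NEBNext small RNA kit. The authors used the forward reads, removed adaptors and mapped with sRNAbench (mean phred 20, minimum length 15, minimum 2 reads, 1 mismatch, seed 20) to Rnor_6.0 with miRBase 22 and Ensembl 104. The deposited values are raw read counts per miRNA. Column names give the treatment and a code of the timepoint, which only the group sizes (7, 7, 5 and 6) tie to the labels' nonabstinent and abstinent groups. DESeq2 is named in the submitters' processing notes.

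Counts were filtered with filterByExpr, scaled by TMM and fitted with edgeR 4.0.16 (R 4.3.3) over 4 groups, without replicate block. Standard errors are the absolute log2 fold change over the square root of F. CPM values on the log2 scale have a prior count of 2 and ratios a pseudocount of 0.5. Floors cover counting error only. DESeq2 1.42.0, limma 3.58.1 (voom), other scalings, filters, thresholds and leaving out each library were alternatives. The ncRNA counts served only for a joint TMM factor. The fit was tested on simulated data. Members, lists and tests were chosen with earlier results of these data known. Named miRNAs were the members, the 3 closest to each leading arm by ratio, a list of 14 other references where called or extreme, and 2 miRNAs set against the references.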

Additional observations from a re-analysis of the deposited data

Results flagged for a closer look

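For the log2 levels of the 5 members, their 3 log2 ratios and the log2 total count in each of 4 groups, 36 sets of 5 to 7 libraries in all, the highest and lowest library was compared with the rest by Dixon's criterion at 95%. Chance picks out about 1 in 20 groups of libraries, or 1.8 here, and 4 were picked out. On the log2 CPM scale, rno-miR-425-5p was highest in F0_ABS-MOR library S, at 11.37 with the next library at 10.93. rno-miR-191a-3p was highest in F0_ABS-SAL library E, at 5.82 with the next at 5.01. rno-miR-425-3p was lowest in F0_MOR library M, at 3.88 with the next at 4.73, and lowest in F0_ABS-SAL library R, at 3.76 with the next at 4.78.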

How the results depend on the processing

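No paired analysis was possible because the columns carry library letters and no replicate numbers. Over all results and settings 1527 values kept their direction and their side of the threshold, 65 changed sign, 12 lost and 11 gained the threshold, and 13 moved by more than the spread or 1.5 times. The cause was not tested. The values that changed sign were all estimates that did not pass the test. Against F0_SAL, F0_MOR gave with total count alone 0.14 for rno-miR-191a-5p, 0.085 for rno-miR-425-5p, 0.12 for rno-miR-191a-3p and 0.031 for rno-miR-425-3p, with a shift of 0.25 in the median of all miRNAs. It gave 0.032 and 0.057 for rno-miR-191a-5p and rno-miR-191a-3p without rno-miR-34c-5p in the total, -0.065 for rno-miR-186-5p with the joint factor, 0.12 for rno-miR-191a-3p with voom and 0.061 for rno-miR-425-3p with total count as covariate. Between F0_ABS-MOR and F0_ABS-SAL voom gave -0.14, -0.074 and -0.091 for rno-miR-191a-5p, rno-miR-425-5p and rno-miR-425-3p, and the joint factor -0.0032 for rno-miR-191a-5p. Between F0_ABS-SAL and F0_SAL total count gave 0.10 for rno-miR-425-5p and 0.15 for rno-miR-425-3p. Between F0_ABS-MOR and F0_MOR rno-miR-425-3p was at 0.011 with DESeq2, 0.0098 with its size factors, 0.19 with total count, 0.11 with the joint factor, 0.095 without rno-miR-34c-5p and 0.025 with those groups alone, where rno-miR-425-5p was at 0.053 with total count and rno-miR-186-5p at -0.028 with the covariate. For the interaction voom gave 0.067 and 0.086 for rno-miR-191a-5p and rno-miR-191a-3p, total count 0.097 and 0.046 for rno-miR-191a-5p and rno-miR-425-5p, and the total without rno-miR-34c-5p 0.013 for rno-miR-191a-5p.

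The 1 member called between F0_ABS-SAL and F0_SAL became 0 without rno-miR-34c-5p in the total, with the covariate and at an adjusted p under 0.05, where 94, 117 and 80 of all miRNAs were called, and the 0 between F0_ABS-MOR and F0_MOR became 1 with voom (rno-miR-191a-3p, -0.85, adjusted p = 0.0469), where 90 of all miRNAs were called. At an adjusted p under 0.05, 43 of all miRNAs were called there in place of 67. When one library was left out, the saline count ran from 0 (without C, K or R, with 93, 101 and 65 of all miRNAs called) to 2 (without E, with rno-miR-191a-5p added and 126 of all called) and the morphine count from 0 to 1 (without N, T or S, with 72, 78 and 80 of all called). With group medians the log2 ratio of rno-miR-186-5p to rno-miR-191a-5p differed by 0.63 between the saline groups (exact permutation p = 0.111) and 0.39 between the morphine groups (0.0437), and that of rno-miR-150-5p between F0_MOR and F0_SAL by 1.12 over rno-miR-425-5p and 0.98 over the geometric mean (0.0583 each). The SD of rno-miR-186-5p was 0.29 with total count and 0.34 with the joint factor.

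With one library left out at a time, values that changed sign or side ran as follows. Between F0_MOR and F0_SAL rno-miR-186-5p ran from -0.035 to 0.098 and rno-miR-191a-3p from -0.22 to 0.13. Between F0_ABS-MOR and F0_ABS-SAL rno-miR-191a-5p ran from -0.10 to 0.21, rno-miR-425-5p from -0.10 to 0.14, rno-miR-191a-3p from -0.039 to 0.45 and rno-miR-425-3p from -0.13 to 0.22. Between F0_ABS-MOR and F0_MOR rno-miR-186-5p ran from -0.028 to 0.12 and rno-miR-425-3p from -0.14 to 0.14. The ratio of rno-miR-186-5p to rno-miR-191a-5p ran from 0.080 to 0.27 between F0_MOR and F0_SAL (under 0.05 without V) and from 0.26 to 0.46 between F0_ABS-MOR and F0_MOR (under 0.05 without Q or X), and that to rno-miR-425-5p from 0.15 to 0.26 between F0_MOR and F0_SAL. rno-miR-425-5p over rno-miR-191a-5p ran from -0.15 to 0.0081 between F0_MOR and F0_SAL and from -0.10 to 0.11 between F0_ABS-MOR and F0_ABS-SAL. rno-miR-150-5p over rno-miR-186-5p ran from 0.81 to 1.24 between F0_MOR and F0_SAL. With 5 to 7 libraries a group, differences of the leading arms that lie within their intervals are not excluded, and no detection limit was calculated.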
